A study of Kluyveromyces lactis with 17 samples.

Results

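The 8 genes described here are Kluyveromyces lactis genes that carry the names of cell-type-specific mating genes of yeast, chosen by name from the 5335 genes of the count table. The 6 genes grouped as a-specific are STE2 (KLLA0_F25102g), STE6 (KLLA0_B14256g), AXL1 (KLLA0_D15631g), BAR1 (KLLA0_D15917g), AGA2 (KLLA0_E10891g) and ASG7 (KLLA0_A06578g). The 2 grouped as α-specific are STE3 (KLLA0_A06534g) and SAG1 (KLLA0_E09681g). These class names come with the choice of genes and were not taken from their levels, which do not all follow them. All 8 passed the filter on low counts and stood among the 5224 genes tested.

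Poly(A) RNA was sequenced from 2 strains, each grown at 4 concentrations of nicotinic acid, a vitamin that is a precursor of NAD+. The WT strain, LRY2992, is MATa SIR2 hmlΔ hmrΔ. The other strain, LRY2993, is MATα sir2Δ hmlΔ hmrΔ, and is called sir2Δ below. Both strains thus lack the silent loci HML and HMR, and they differ in mating type as well as in SIR2, so these 2 differences cannot be told apart in any comparison between strains. Each genotype is represented by a single strain. All cultures grew overnight with 400 µg/L nicotinic acid and then for 4 h with 400, 135, 45 or 15 µg/L, which gave 8 groups of 2 replicates, stated in the series text to be independent biological replicates.

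Haploid budding yeasts mate as a or α cells. In S. cerevisiae, where the roles below were worked out, a cells carry the receptor for α-factor and α cells carry the receptor for a-factor, and each type makes its own pheromone, its own surface adhesin and the enzymes that process or destroy the pheromones. Sir2 is a protein deacetylase that uses NAD+ and silences chromatin, including the silent mating-type loci. Lower nicotinic acid was used to lower NAD+ in the cells, and the series title frames the comparison as a test of how far Sir2 carries the response to low NAD+.

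The 17 libraries held 24663143 to 38246270 counted reads, and the median library held 33734530. The strain labels were checked first. SIR2 (KLLA0_F14663g) had 140 ± 5.61 CPM (reads scaled to library size; mean ± SD, n = 8) in WT and 1.37 ± 0.730 CPM in sir2Δ. HMLALPHA1 and HMLALPHA2 are the reference names of genes for the regulators of α identity. Since both strains are hmlΔ hmrΔ, reads under these names do not measure silencing of HML. HMLALPHA1 and HMLALPHA2 had 75.9 and 23.0 CPM in sir2Δ against 0.543 and 0.182 CPM in WT. In the other direction KLLA0_C03135g and KLLA0_B14553g, which the reference does not name, had 16.6 and 17.1 CPM in WT and 0.134 and 0.142 CPM in sir2Δ. In bulk RNA, fewer cells with a transcript and less transcript per cell cannot be told apart. Library 1 of WT at 400 µg/L stood apart from libraries 1R and 2 of that group. Its log2 CPM had a Pearson correlation across genes of 0.960 with 1R and 0.964 with 2, against 0.995 between 1R and 2. Relative to the mean of those 2 libraries, its median log2 level ran from 0.62 in the shortest of 5 bins of coding length to -0.40 in the longest. Libraries 1 and 1R carry the same replicate number and were summed as replicate 1, so the model was fitted to 16 columns. The prefix RESUB stands in the labels of libraries 1 and 1R and of sir2Δ library 8 at 15 µg/L and is not explained there.

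Of the a-specific genes, BAR1, AGA2, AXL1 and STE2 rose in WT when nicotinic acid was lowered from 400 to 15 µg/L, by 1.46 to 2.19 on the log2 scale, and STE6 rose by 0.32. In sir2Δ none of the 8 genes passed the test at any lower level. Of all tested genes in that strain, 11.6% were called higher and 6.09% lower at 15 against 400 µg/L. At 45 µg/L the shares were 10.7% and 7.83%, and at 135 µg/L they were 1.17% and 0.727%. The count of 0 alone is therefore not read as a result about these genes. The α-specific genes STE3 and SAG1 did not pass the test between levels in either strain. The levels in each library are plotted first, and each gene is then taken in turn by its role. Values by library are scaled over the 17 libraries, while group means and tests use the 16 columns.

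**Figure D1:**
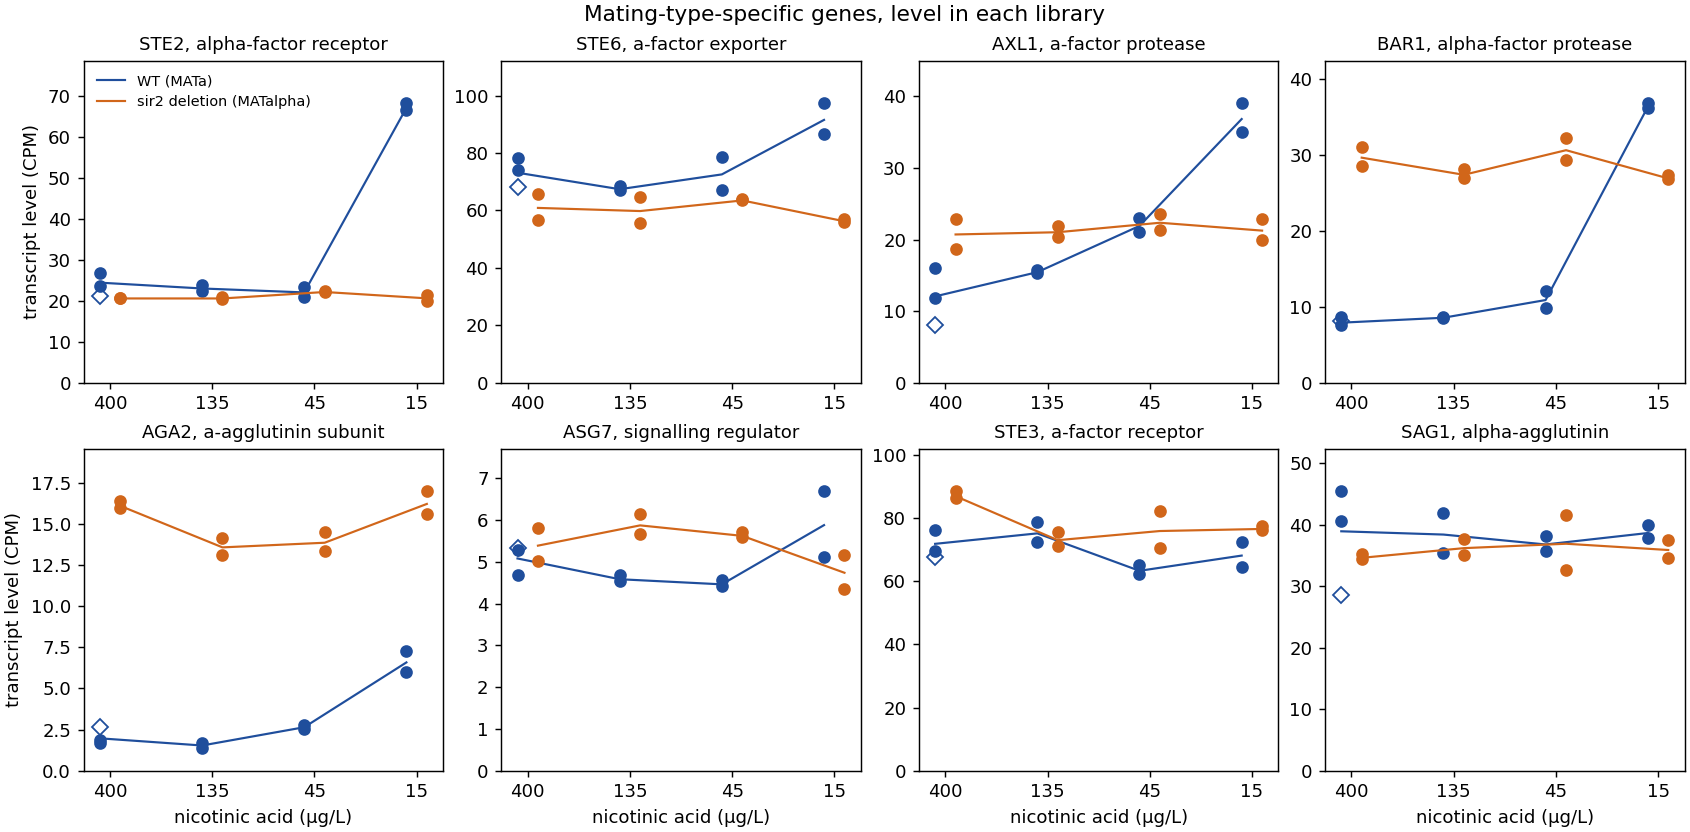
Transcript level in CPM (linear axes from 0) of the 8 genes in each library, by nicotinic acid level (µg/L), with WT in blue and sir2Δ in orange; lines join the group means and the open diamond is library 1 of WT at 400 µg/L. In WT at 15 µg/L, STE2 sits at 66.7 and 68.4 CPM and BAR1 at 36.8 and 36.2 CPM, above every other library, while STE3 and SAG1 show no such step.

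STE2 encodes the receptor for α-factor. It had 21.2, 23.6 and 26.9 CPM in libraries 1, 1R and 2 of WT at 400 µg/L, 23.9 and 22.5 at 135 µg/L, 23.4 and 21.0 at 45 µg/L, and 66.7 and 68.4 at 15 µg/L. In sir2Δ it had 20.8 and 20.6 CPM at 400 µg/L, 20.4 and 21.0 at 135 µg/L, 22.3 in both libraries at 45 µg/L, and 21.4 and 20.0 at 15 µg/L. The WT libraries at 15 µg/L lay far above all others, and the remaining libraries of both strains lay within 20.0 to 26.9 CPM. From 400 to 15 µg/L in WT the log2 fold change was 1.46 ± 0.10 (SE), a 2.75-fold rise (edgeR quasi-likelihood test, Benjamini-Hochberg adjusted p = 1.66e-08, as for every edgeR adjusted p given here). At 45 against 400 µg/L the log2 fold change was -0.14 ± 0.11, with a 95% interval of -0.37 to 0.08. At 15 against 45 µg/L it was 1.61 ± 0.11 (edgeR adjusted p = 4.12e-08).

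BAR1 encodes the secreted protease that destroys α-factor. In WT it had 8.13, 8.61 and 7.58 CPM in libraries 1, 1R and 2 at 400 µg/L, 8.71 and 8.50 at 135 µg/L, 9.83 and 12.1 at 45 µg/L, and 36.8 and 36.2 at 15 µg/L. In sir2Δ it had 31.0 and 28.6 CPM at 400 µg/L, 28.1 and 27.0 at 135 µg/L, 29.3 and 32.3 at 45 µg/L, and 26.8 and 27.3 at 15 µg/L. The 3 higher levels of WT thus lay below every sir2Δ library, and WT at 15 µg/L lay above every one. The rise in WT from 400 to 15 µg/L was 2.19 ± 0.12 on the log2 scale, 4.57-fold (edgeR adjusted p = 6.29e-10), the largest of the 8 genes. The log2 fold change was 0.46 ± 0.12 at 45 µg/L against 400 µg/L, a smaller rise (edgeR adjusted p = 0.0245). This smaller rise did not pass the test without WT replicate 1 or 2 at 400 µg/L or WT replicate 6 at 45 µg/L, with values of 0.30 to 0.53 and edgeR adjusted p from 0.0545 to 0.226.

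AGA2 encodes the adhesin subunit of a-agglutinin that binds the partner cell. In WT it had 2.65, 1.71 and 1.85 CPM in libraries 1, 1R and 2 at 400 µg/L, 1.38 and 1.70 at 135 µg/L, 2.51 and 2.81 at 45 µg/L, and 7.25 and 5.99 at 15 µg/L. In sir2Δ it had 16 and 16.4 CPM at 400 µg/L, 13.1 and 14.2 at 135 µg/L, 13.4 and 14.5 at 45 µg/L, and 15.6 and 17.0 at 15 µg/L. The strains did not overlap at any level, and WT at 15 µg/L came closest to sir2Δ. In WT the rise from 400 to 15 µg/L was 1.72 ± 0.18 on the log2 scale, 3.30-fold (edgeR adjusted p = 1.29e-06). The 51 to 232 reads behind the WT columns are the fewest of any of these genes.

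AXL1 encodes a protease that matures a-factor. In WT it had 8.13, 16.1 and 11.8 CPM in libraries 1, 1R and 2 at 400 µg/L, 15.7 and 15.3 at 135 µg/L, 23.0 and 21.1 at 45 µg/L, and 39.1 and 35.0 at 15 µg/L. In sir2Δ it had 22.9 and 18.8 CPM at 400 µg/L, 22.0 and 20.3 at 135 µg/L, 23.6 and 21.4 at 45 µg/L, and 19.9 and 22.8 at 15 µg/L. In WT the libraries at 15 µg/L lay above those at 45 µg/L, which lay above those at 135 and 400 µg/L, while library 1R at 400 µg/L lay above both libraries at 135 µg/L. The log2 fold change against 400 µg/L was 0.35 ± 0.13 at 135 µg/L (not past the test, edgeR adjusted p = 0.184), 0.86 ± 0.13 at 45 µg/L (edgeR adjusted p = 0.000237) and 1.61 ± 0.13 at 15 µg/L (edgeR adjusted p = 5.2e-08). Library 1 lay 0.76 below the mean of 1R and 2 on the log2 scale for this gene, the largest such gap of the 8, and the sum of 1 and 1R hides that spread. With library 1 left out, the change at 15 µg/L was 1.41 (edgeR adjusted p = 4.47e-07).

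STE6 encodes the transporter that exports a-factor. In WT it had 68.1, 78.4 and 73.9 CPM in libraries 1, 1R and 2 at 400 µg/L, 68.4 and 67.1 at 135 µg/L, 78.7 and 67.2 at 45 µg/L, and 97.4 and 86.7 at 15 µg/L. In sir2Δ its level stayed within 55.5 to 65.8 CPM. Every sir2Δ library thus lay below every WT library. The rise in WT at 15 µg/L, 0.32 ± 0.10 on the log2 scale (edgeR adjusted p = 0.0251), was the smallest that passed the test. It did not pass without WT replicate 1 or 2 at 400 µg/L or replicate 7 at 15 µg/L, with values of 0.24 to 0.33 and edgeR adjusted p from 0.0590 to 0.217, and it was 0.27 without library 1 (edgeR adjusted p = 0.0424).

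ASG7 encodes an a-cell protein that dampens pheromone signalling after mating in S. cerevisiae. Its level was low in all groups, from 4.42 to 6.70 CPM in the WT libraries and from 4.36 to 6.15 CPM in sir2Δ. It had 5.32, 4.68 and 5.30 CPM in libraries 1, 1R and 2 of WT at 400 µg/L and 5.13 and 6.70 at 15 µg/L, so these groups overlapped. The log2 fold change of 0.22 ± 0.18, with a 95% interval of -0.17 to 0.61, did not pass the test (edgeR adjusted p = 0.415). It was the only a-specific gene of the list without a call in any of the 17 comparisons tested.

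STE3 encodes the receptor for a-factor, and SAG1 encodes α-agglutinin, the adhesin of α cells. STE3 had 67.7, 69.7 and 76.2 CPM in libraries 1, 1R and 2 of WT at 400 µg/L and 72.4 and 64.6 at 15 µg/L. SAG1 had 28.6, 45.5 and 40.6 CPM in the same 3 libraries at 400 µg/L and 39.9 and 37.8 at 15 µg/L. The ranges at these levels overlapped for both genes, and both were well above 0 in the MATa strain. From 400 to 15 µg/L in WT, STE3 had a log2 fold change of -0.08 ± 0.09, with a 95% interval of -0.27 to 0.12 (edgeR adjusted p = 0.596). The value for SAG1 was -0.01 ± 0.11, with an interval of -0.25 to 0.23 (edgeR adjusted p = 0.967).

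The order of the 8 group means over the 16 columns differed from gene to gene. With 2 replicates a group, ranges can part without a call. In WT at 135 against 400 µg/L, 5 of the 8 genes did not overlap and 0 were called. The share of all genes without overlap was not computed, so overlap is given only as a description. STE2, STE6, AXL1 and BAR1 were highest in WT at 15 µg/L, and none of those means overlapped the next group in range. AGA2 was highest in sir2Δ at 15 µg/L, at 16.2 ± 0.983 CPM (SD, n = 2), which overlapped sir2Δ at 400 µg/L. Its 4 WT means, from 6.59 ± 0.892 CPM at 15 µg/L down to 1.53 ± 0.222 CPM at 135 µg/L, all lay below sir2Δ. BAR1 followed the order WT at 15 µg/L, the 4 sir2Δ groups, and then WT at 45, 135 and 400 µg/L. The 3 last groups did not overlap each other in the 16 columns, though library 1R at 400 µg/L lay between both libraries at 135 µg/L. The BAR1 steps from 135 to 45 µg/L (edgeR adjusted p = 0.113) and from 400 to 135 µg/L (edgeR adjusted p = 0.732) did not pass the test. For ASG7 and SAG1 every group overlapped its neighbour in the order. STE3 was highest in sir2Δ at 400 µg/L, at 86.9 ± 1.65 CPM, and its other 7 groups overlapped their neighbours.

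Levels can be compared between genes per kilobase of coding length. In WT at 400 µg/L, STE3 had the highest mean of the 8 genes, 54.9 CPM per kb, followed by STE6 with 19.2, STE2 with 18.7 and SAG1 with 16.6. ASG7 had 7.33, AGA2 7.22, BAR1 5.15 and AXL1 3.44 CPM per kb, and the ranges of STE6 and STE2, of STE2 and SAG1, and of ASG7 and AGA2 overlapped. The order differed at 15 µg/L, where STE3 had 52.1 and STE2 51.3 CPM per kb, with overlapping ranges. AGA2, STE6 and BAR1 then had 24.1, 24.0 and 23.6 CPM per kb, also with overlapping ranges, ahead of SAG1 with 16.5, AXL1 with 10.5 and ASG7 with 8.49. In sir2Δ, STE3 had a mean of 59.7 and AGA2 of 54.7 CPM per kb over all levels, ahead of BAR1 with 18.6. At 15 µg/L in that strain AGA2 had 59.4 and STE3 58.5 CPM per kb, with overlapping ranges. The receptor gene of α cells thus had the highest mean of the 8 at each level in the a strain by this measure, although at 15 µg/L it overlapped STE2. The coding lengths run from 273 bases in AGA2 to 3816 bases in STE6, and the length trend of library 1 touches this scale.

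Counts over the 8 genes are set against the share of all tested genes called in the same comparison and direction. In WT at 15 against 400 µg/L, 5 of the 8 were called higher and 0 lower, where 15.8% of all tested genes were called higher and 10.3% lower. All 5 were a-specific: STE2, STE6, AXL1, BAR1 and AGA2. The median log2 fold change was 1.53 over the 6 a-specific genes and -0.01 over all genes. At 45 against 400 µg/L in WT, 2 of 8 (AXL1 and BAR1) were called higher and 0 lower, against backgrounds of 7.20% and 3.46%. At 135 against 400 µg/L no gene of the 8 was called, by edgeR or by DESeq2, and 1 had an unadjusted p under 0.05; 2.22% of all genes were called higher and 0.861% lower.

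Genes that mark the MATa strain also moved in WT over these levels. KLLA0_C03157g and KLLA0_B14575g, which had at most 0.445 and 0.541 CPM in any sir2Δ column, rose in WT from 400 to 15 µg/L by 3.27 ± 0.19 and 3.34 ± 0.19 on the log2 scale (edgeR adjusted p = 3.74e-09 and 1.06e-09). KLLA0_B14553g rose by 0.64 ± 0.18 (edgeR adjusted p = 0.0157) and KLLA0_C03135g had 0.52 ± 0.24 (edgeR adjusted p = 0.117). The levels within these pairs run so close that reads may be split between near-identical copies. Their part in the rise of the a-specific genes was not tested. SIR2 itself had a log2 fold change of 0.11 ± 0.13 in WT and did not pass the test.

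The steps between neighbouring lower levels placed most of the change of BAR1, STE2, AGA2 and STE6 between 45 and 15 µg/L. AXL1 was the exception among the 5 genes that rose, with 0.86 from 400 to 45 µg/L and 0.75 from 45 to 15 µg/L on the log2 scale. Without library 1 of WT at 400 µg/L these AXL1 values were 0.66 and 0.75, so which step was larger depended on that library. In WT at 15 against 45 µg/L, 5 of 8 were called higher and 0 lower, with 9.00% and 3.68% of all genes, and these were STE2, STE6, AXL1, BAR1 and AGA2. The log2 fold changes on this step were 1.74 ± 0.12 for BAR1, 1.61 ± 0.11 for STE2, 1.31 ± 0.18 for AGA2, 0.75 ± 0.12 for AXL1 and 0.33 ± 0.10 for STE6. The STE6 call (edgeR adjusted p = 0.0381) was lost without WT replicates 3 or 4 at 135 µg/L, 6 at 45 µg/L or 7 at 15 µg/L, or sir2Δ replicates 7 or 8 at 15 µg/L, with values of 0.23 to 0.34 and edgeR adjusted p from 0.0523 to 0.312. With libraries 1 and 1R entered as 2 replicates, the calls of AXL1 (edgeR adjusted p = 0.0733) and STE6 (0.112) on this step were both lost, at nearly the same values. At 45 against 135 µg/L, 2 of 8 were called higher and 0 lower, with 4.52% and 1.95% of all genes. AGA2 rose by 0.78 ± 0.20 (edgeR adjusted p = 0.0274) and AXL1 by 0.50 ± 0.13 (edgeR adjusted p = 0.0245). Both calls were lost without WT replicate 3 or 4 at 135 µg/L or WT replicate 6 at 45 µg/L, and AXL1 also without WT replicate 5 at 45 µg/L. The values were then 0.64 to 0.94 for AGA2 (edgeR adjusted p from 0.0891 to 0.257) and 0.44 to 0.57 for AXL1 (edgeR adjusted p from 0.0630 to 0.204). BAR1, at 0.35 ± 0.12 (edgeR adjusted p = 0.113), was called without WT replicate 5 at 45 µg/L, with 0.49 (edgeR adjusted p = 0.0399).

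In sir2Δ, 0 of the 8 genes were called in either direction at 15, 45 or 135 against 400 µg/L, by edgeR and by DESeq2. Of the 24 tests in this strain 1, that of STE3 at 135 µg/L, had an unadjusted p under 0.05, with a log2 fold change of -0.25 ± 0.09 (edgeR adjusted p = 0.179). STE3 was called lower at 135 µg/L when the fit held only the sir2Δ libraries at 135 and 400 µg/L, with -0.26 (edgeR adjusted p = 0.0068), and at 45 µg/L without sir2Δ replicate 6, with -0.31 (edgeR adjusted p = 0.0426). The background in sir2Δ was 11.6% higher and 6.09% lower at 15 µg/L, 10.7% and 7.83% at 45 µg/L, and 1.17% and 0.727% at 135 µg/L. At 15 µg/L the log2 fold changes of the 8 genes lay between -0.18 and 0.05. The 95% intervals bound the changes: the highest upper bound at 15 µg/L was 0.33, for AGA2, and for BAR1 and STE2 the upper bounds were 0.10 and 0.23. A change of the size seen in WT for BAR1, AGA2, AXL1 or STE2 lay outside these intervals.

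**Figure D2:**
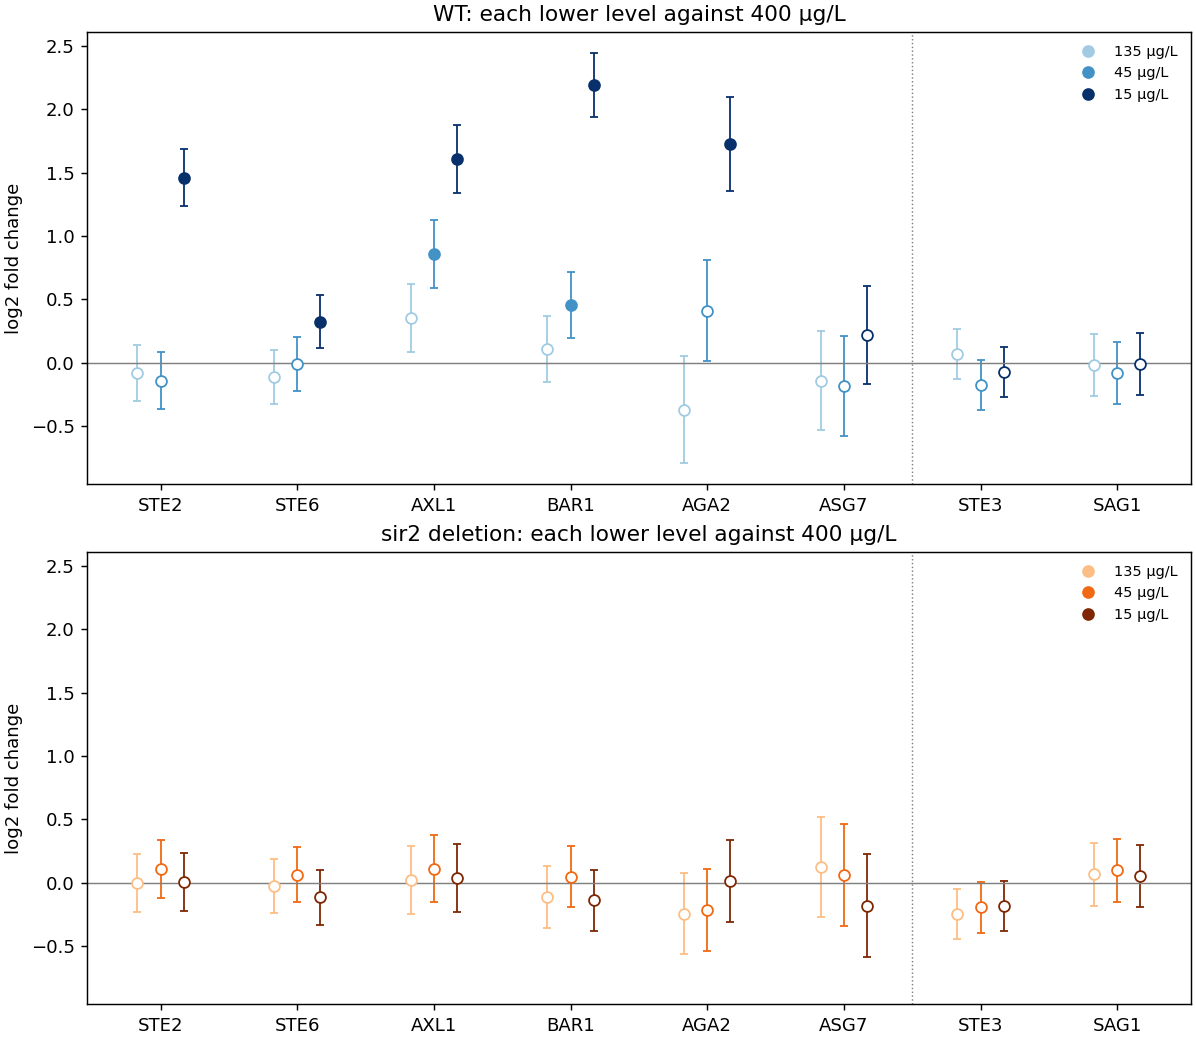
Log2 fold change of each lower nicotinic acid level against 400 µg/L in WT (upper panel) and sir2Δ (lower panel), with 95% confidence intervals; filled points passed the test and open points did not, and the dotted line divides the a-specific from the α-specific genes. At 15 µg/L in WT the points of STE2, AXL1, BAR1 and AGA2 lie between 1.46 and 2.19, and in sir2Δ no point is filled.

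The difference between the strains in this response was itself tested as the change in sir2Δ minus the change in WT, which combines comparisons that share no samples. At 15 against 400 µg/L, 0 of 8 had a higher change and 5 of 8 a lower change in sir2Δ, with 7.50% and 9.71% of all tested genes. The differences on the log2 scale were -2.33 ± 0.16 for BAR1 (edgeR adjusted p = 3.14e-08), -1.71 ± 0.23 for AGA2, -1.57 ± 0.18 for AXL1 and -1.46 ± 0.15 for STE2. STE6 had -0.44 ± 0.14 (edgeR adjusted p = 0.0445). At 45 against 400 µg/L, 0 of 8 were called higher and 1 lower, with 1.11% and 3.10% of all genes, and the called gene was AXL1 at -0.75 ± 0.18 (edgeR adjusted p = 0.0258). At 135 against 400 µg/L, 0 of 8 were called in either direction by edgeR or by DESeq2, with 1 at an unadjusted p under 0.05, and 1.05% and 1.67% of all genes were called.

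The STE6 and AXL1 differences were near the threshold. STE6 lost its call at 15 µg/L without sir2Δ replicates 1 at 400 µg/L or 7 or 8 at 15 µg/L, or WT replicates 1 or 2 at 400 µg/L, 3 or 4 at 135 µg/L or 7 at 15 µg/L, with values of -0.45 to -0.33 and edgeR adjusted p from 0.0656 to 0.205. Without library 1 it was -0.39 (edgeR adjusted p = 0.0533). AXL1 lost its call at 45 µg/L without sir2Δ replicates 1 at 400 µg/L or 6 at 45 µg/L, or WT replicates 2 at 400 µg/L or 5 at 45 µg/L, with values of -0.72 to -0.59 and edgeR adjusted p from 0.0501 to 0.151. Without library 1 the AXL1 difference at 45 µg/L was -0.55 (edgeR adjusted p = 0.0811), and AGA2 was then called at -0.80 (edgeR adjusted p = 0.0425).

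Between strains, the a-specific genes did not move as one class. AGA2 and BAR1 were higher in the MATα sir2Δ strain at 400, 135 and 45 µg/L, and AGA2 was higher at 15 µg/L as well. STE6 and STE2 were lower in the MATα strain on average over the levels. For STE2 that average rests on 15 µg/L, where sir2Δ had 0.307-fold the WT level, while at 400, 135 and 45 µg/L it had 0.845-, 0.894- and 1.00-fold and was not called. AXL1 and BAR1 turned between the levels, from 1.72- and 3.73-fold at 400 µg/L to 0.577- and 0.741-fold at 15 µg/L. ASG7 was called at no level. Of the α-specific genes, STE3 lay between 0.971-fold the WT level at 135 µg/L and 1.21-fold at 400 µg/L, and SAG1 lay between 0.890- and 1.01-fold and was called at none. HMLALPHA1 and HMLALPHA2, given above, followed the labels at every level.

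At 400 µg/L, 4 of 8 were called higher in sir2Δ and 1 lower, where 22.5% of all tested genes were called higher and 22.3% lower. AGA2 was higher by 3.01 ± 0.17 on the log2 scale, 8.08-fold (edgeR adjusted p = 6.26e-10). BAR1 was higher by 1.90 ± 0.12, 3.73-fold (edgeR adjusted p = 2.09e-09), and AXL1 by 0.78 ± 0.13, 1.72-fold (edgeR adjusted p = 0.000107). STE3 was higher by 0.28 ± 0.09 (edgeR adjusted p = 0.0235), with 88.5 and 86.2 CPM in sir2Δ. STE6 was lower, with a log2 fold change of -0.26 ± 0.10 (edgeR adjusted p = 0.0439). The STE3 call was lost without sir2Δ replicate 1 or 2 or WT replicate 1 at 400 µg/L, with values of 0.20 to 0.30 and edgeR adjusted p from 0.0684 to 0.162. The STE6 call was lost without any of 8 replicates (sir2Δ 2 at 400 µg/L and 7 and 8 at 15 µg/L, and WT 1 and 2 at 400 µg/L, 3 and 4 at 135 µg/L and 7 at 15 µg/L). Its values were then -0.27 to -0.16, at an edgeR adjusted p from 0.0552 to 0.337. Without library 1, STE2 (-0.28, edgeR adjusted p = 0.0233) and SAG1 (-0.31, edgeR adjusted p = 0.0299) were called lower too, and STE2 was also called lower without WT replicate 1, with -0.38.

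AGA2 and BAR1 also had the largest strain differences of the 8 genes at the intermediate levels. At 135 µg/L, 3 of 8 were called higher in sir2Δ and 0 lower, against 16.5% and 15.3% of all genes: AGA2 at 3.14 ± 0.18, BAR1 at 1.68 ± 0.12 and AXL1 at 0.44 ± 0.13. The AXL1 call (edgeR adjusted p = 0.0128) was lost without sir2Δ replicate 3 or WT replicate 3 or 4 at 135 µg/L, with values of 0.39 to 0.46 and edgeR adjusted p from 0.0596 to 0.0908. At 45 µg/L, 3 of 8 were called higher and 0 lower, against 20.9% and 18.7% of all genes, and these were AGA2 at 2.39 ± 0.17, BAR1 at 1.49 ± 0.12 and STE3 at 0.26 ± 0.09. The STE3 call (edgeR adjusted p = 0.0362) was lost without sir2Δ replicate 6 or WT replicate 5 or 6 at 45 µg/L, with values of 0.14 to 0.29 and edgeR adjusted p from 0.0627 to 0.298.

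At 15 µg/L, 1 of 8 was called higher in sir2Δ and 4 lower, against 14.7% and 16% of all genes. AGA2 remained higher, by 1.30 ± 0.16 (edgeR adjusted p = 1.5e-05). STE2 had a log2 fold change of -1.70 ± 0.11 (edgeR adjusted p = 1.4e-08), AXL1 -0.79 ± 0.12, STE6 -0.70 ± 0.10 and BAR1 -0.43 ± 0.11. BAR1 and AXL1 thus had the opposite sign to their difference at 400 µg/L. The BAR1 call (edgeR adjusted p = 0.0083) was lost without sir2Δ replicate 7 at 15 µg/L, with a value of -0.42 and an edgeR adjusted p of 0.0525. Averaged over the 4 levels, 3 of 8 were called higher and 2 lower, against 30.9% and 30.2% of all genes. STE2 and STE6 were lower on average (-0.53 ± 0.05 and -0.33 ± 0.05), AGA2 (2.46 ± 0.09), BAR1 (1.16 ± 0.06) and STE3 (0.17 ± 0.05) were higher, and AXL1, which changed sign between levels, was not called (0.12 ± 0.06). SAG1, at -0.09 ± 0.06, was called lower without sir2Δ replicate 5 at 45 µg/L, with -0.14 (edgeR adjusted p = 0.0370).

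**Figure D3:**
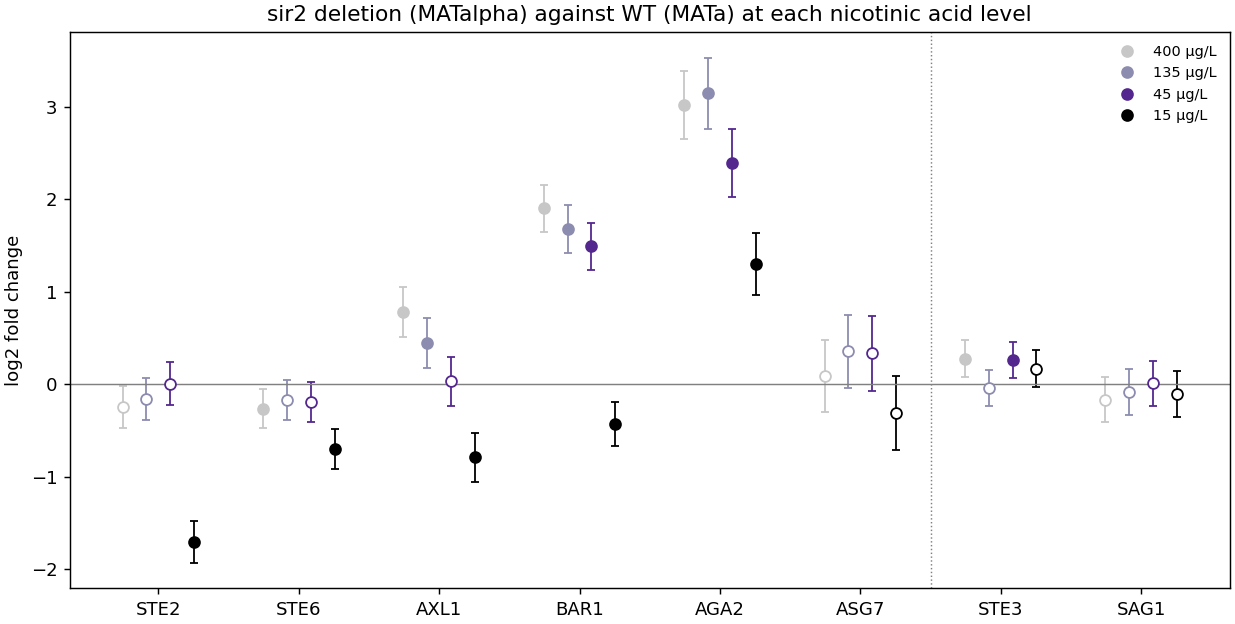
Log2 fold change of sir2Δ (MATα) against WT (MATa) for each gene at 400, 135, 45 and 15 µg/L nicotinic acid, with 95% confidence intervals; filled points passed the test, and the dotted line divides the a-specific from the α-specific genes. AGA2 goes from 3.01 at 400 to 1.30 at 15 µg/L, BAR1 from 1.90 to -0.43 and STE2 from -0.24 to -1.70.

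WT with the least nicotinic acid can be set directly against sir2Δ with the most. In sir2Δ at 400 µg/L against WT at 15 µg/L, 2 of 8 were called higher and 4 lower, against 23.7% and 26.1% of all tested genes. AGA2 was higher in sir2Δ by 1.29 ± 0.16 and STE3 by 0.35 ± 0.09. STE2 had -1.70 ± 0.11, AXL1 -0.83 ± 0.12, STE6 -0.59 ± 0.10 and BAR1 -0.29 ± 0.11. WT at 15 µg/L thus had more STE2, AXL1, STE6 and BAR1 transcript than sir2Δ, and less AGA2. Without WT replicate 8 at 15 µg/L, STE3 had 0.27 and was not called (edgeR adjusted p = 0.0675). The BAR1 call (edgeR adjusted p = 0.0412) was lost without any of 10 replicates (sir2Δ 1 and 2 at 400 µg/L, 3 and 4 at 135 µg/L and 7 and 8 at 15 µg/L, and WT 3 and 4 at 135 µg/L and 7 and 8 at 15 µg/L), with values of -0.36 to -0.23 and edgeR adjusted p from 0.0515 to 0.214.

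The rest of the mating pathway was read from 5 lists of 66 names taken from S. cerevisiae, of which 44 matched a symbol and were tested. The pheromone genes, MCM1, AGA1 and MTS1 had no symbol match, so nothing is given here under those names. In WT at 15 against 400 µg/L, 13 of the 44 were called higher and 3 lower, with a median log2 fold change of 0.08, against the 15.8% and 10.3% of all genes given above. In sir2Δ, 2 were called higher and 2 lower, against 11.6% and 6.09%. In the test of the difference between strains, 1 of 44 had a higher change and 9 a lower change in sir2Δ, against 7.50% and 9.71% of all genes.

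The signalling genes closest to the receptors changed most. Pheromone receptors act through a G protein, whose α, β and γ subunits are encoded by GPA1, STE4 and STE18. In WT, STE4 rose by 2.99 ± 0.08 on the log2 scale, GPA1 by 2.89 ± 0.12 and STE18 by 2.37 ± 0.20 (edgeR adjusted p = 2.82e-13, 1.49e-11 and 1.45e-07). In sir2Δ, STE4 rose by 0.63 ± 0.08, while GPA1 had 0.21 ± 0.11 and STE18 had 0.02 ± 0.17, neither past the test. At 400 µg/L all 3 were higher in sir2Δ than in WT, STE18 by 2.95 ± 0.20, GPA1 by 2.39 ± 0.12 and STE4 by 1.68 ± 0.08. Of the 18 signal transduction genes tested, 4 rose and 2 fell in WT, where 15.8% of all genes were called higher and 10.3% lower. Nothing is read from the counts over this list and the smaller ones that follow beyond the genes named. The other riser was FAR1, which links the pathway to cell-cycle arrest (1.06 ± 0.09), and STE50, an adaptor of the kinase cascade, fell by 0.60 ± 0.09. STE12, the transcription factor at the end of the cascade, had a log2 fold change of 0.04 ± 0.09 and did not pass the test.

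Among the 11 tested targets and fusion genes, 3 rose and 1 fell in WT, against the same 15.8% and 10.3% of all genes. PRM1 and FUS1, which act in cell fusion, rose by 0.92 ± 0.16 and 0.52 ± 0.08, and KAR4, a transcription factor for nuclear fusion genes, rose by 0.52 ± 0.12. PRM4 fell by 0.61 ± 0.09. None of the 11 was called in sir2Δ. Of 6 tested regulators, 4 rose and 0 fell in WT, against the same shares. RME1, a repressor of entry into meiosis in S. cerevisiae, rose by 1.12 ± 0.13 and SUM1, a repressor of meiotic genes there, by 0.73 ± 0.11. In sir2Δ none of these 6 was called, and RME1 had 0.34 ± 0.13 (edgeR adjusted p = 0.0831). Of the 9 tested genes for pheromone processing and export, 2 were called higher in WT and 1 in sir2Δ, against 15.8% and 11.6% of all genes. The difference between strains was called for STE4, GPA1, STE18, FAR1, FUS1, KAR4, PRM1, PRM4, RME1 and SUM1, and for no other of the 44.

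**Figure D4:**
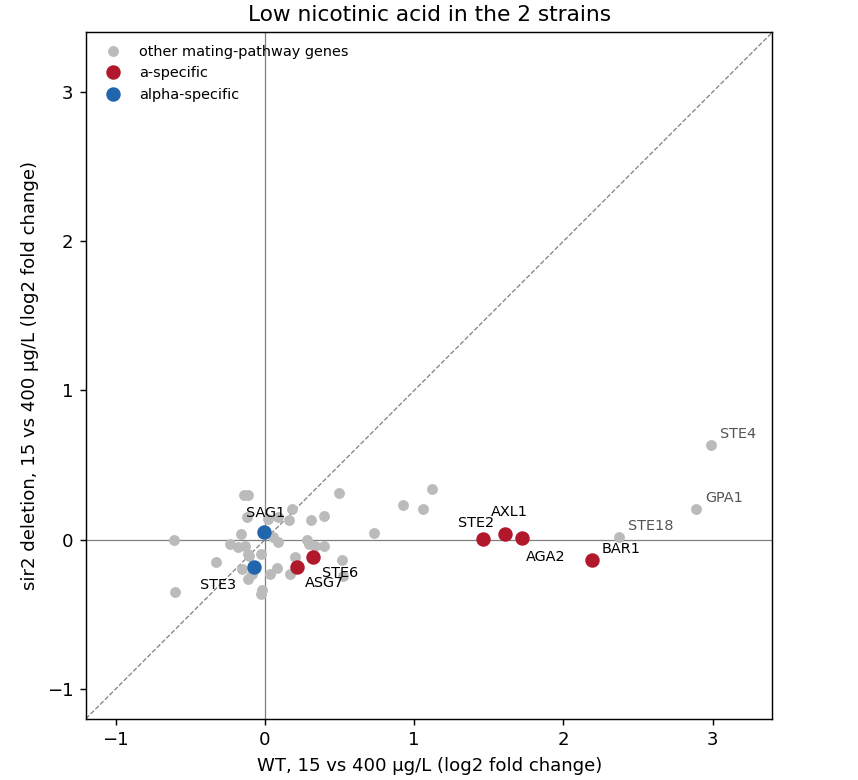
Log2 fold change at 15 against 400 µg/L nicotinic acid in WT (horizontal axis) and in sir2Δ (vertical axis) for the 8 mating-type-specific genes and the other 44 genes of the mating pathway; the dashed line marks equal change. BAR1, AGA2, AXL1 and STE2 lie between 1.46 and 2.19 on the WT axis and within -0.14 and 0.04 on the sir2Δ axis, below the line of equal change.

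The genes are spread over 5 chromosomes in the reference gene order. AXL1 and BAR1 lie on chromosome D with 12 genes between them. ASG7 and STE3 lie on chromosome A with 1 gene, TOH1, between them, although they belong to opposite classes. SAG1 and AGA2 lie on chromosome E, STE6 on B and STE2 on F. The nearest 2 genes on each side of each member gave 29 distinct neighbours, of which 27 were tested. In WT at 15 against 400 µg/L, 5 of the 27 neighbours were called higher and 2 lower, with a median log2 fold change of -0.05. These counts lie near the 15.8% and 10.3% of all genes called, so nothing is read from them about the neighbours. MUM3, which stands 2 genes from STE2, rose by 1.71 ± 0.12, and RIB5, next to BAR1, rose by 0.99 ± 0.14. KLLA0_E10935g, 2 genes from AGA2, rose by 0.81 ± 0.13 and KLLA0_D15653g, next to AXL1, by 0.58 ± 0.10, while NAT2, next to AGA2, fell by 0.54 ± 0.13. The counting is not stated to use strand, so reads from genes that overlap on opposite strands cannot be told apart here.

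For each gene, those with the most similar pattern were taken as the 3 with the highest Pearson correlation of log2 CPM over the 16 columns, among 5117 genes with a mean of at least 1 CPM. These columns share 2 strains and 4 levels, so the correlations mainly describe differences between groups, and they are given as a description. AGA2 followed KLLA0_E20637g (r = 0.994), KLLA0_E17293g (0.993) and KLLA0_E09153g (0.993). BAR1 followed KLLA0_D19921g (0.972), ARG2 (0.969) and KLLA0_B10373g (0.969). STE2 followed MCH5 (0.940), KLLA0_C19206g (0.911) and KLLA0_D17809r (0.905). AXL1 followed GDS1 (0.931), KLLA0_F13398g (0.930) and STE4 (0.929), the G protein subunit described above. STE6 followed KLLA0_F14256g (0.891), VHT1 (0.885) and BIO4 (0.877). The values were lower for STE3, whose best matches were TMA17 (0.860), FUS3 (0.855), a kinase of the pheromone cascade, and GET2 (0.855). SAG1 followed KLLA0_E01035g (0.815), KLLA0_C19316g (0.808) and SLN1 (0.805), and ASG7 followed CKB1 (0.737), WBP1 (0.695) and PSF2 (0.676). No other of the 8 genes was among these best matches.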

How the data were processed

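Per the labels' protocols, poly(A) RNA was sequenced as paired-end reads of 150 bases. The deposited table holds whole-number read counts per gene, made by the authors with tools that the submitters' processing notes list as DESeq2, featureCounts, Bowtie2, SAMtools, cutadapt, FastQC and MultiQC. The genome build, annotation, strand setting, tool versions and tool order are not stated in the labels, headers or notes used here. The deposited normalized table holds a signal that, from its values, is those counts divided by a size factor per library (to within 4.66e-09 reads), and it served only for this check.

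Counts were tested in R 4.3.3 with edgeR 4.0.16 (robust quasi-likelihood test, TMM factors, filterByExpr at a minimum count of 10), which removed 111 genes. A model with a mean for each of 8 groups was fitted to 16 columns, with 8 residual degrees of freedom and a common biological coefficient of variation of 0.0857. WT libraries 1 and 1R were summed. Benjamini-Hochberg adjustment ran over all 5224 genes, and a gene was called at an adjusted p under 0.05. Log2 fold changes used a prior count of 0.125, SE came from the estimate and its F statistic, and intervals are at 95%. The patterns used a prior count of 2. Replicate pairs differed by more than counting noise (chi-square per degree of freedom of at least 6.14). The reads carry no molecular identifiers, and the precision of a level depends on the spread between replicates as well as on read number.

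Alternatives were DESeq2 1.42.0, RLE and upper-quartile factors, no filter, each treatment of libraries 1 and 1R, fits to the compared groups alone, estimation without robustness, a replicate block, and leaving out each replicate. The model was also run on counts simulated with a single common dispersion, and nothing is read from that run about the calls given here. Names, coding lengths and gene order came from the RefSeq table of assembly ASM251v1. No coordinates are printed, because the build behind the counts is not named in those sources. The named pathway genes were those called in WT or in the difference between strains at 15 against 400 µg/L with a change of at least 0.5, up to 20, plus STE12, RME1 and pheromone genes where matched. The members, lists and tests were chosen with earlier results of these data known.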

Additional observations from a re-analysis of the deposited data

Results flagged for a closer look

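The change with nicotinic acid differed between the strains for 5 of the 6 a-specific genes, by the edgeR quasi-likelihood test of the difference itself (change in sir2Δ minus change in WT, log2 scale). That test called 7.50% of all tested genes higher and 9.71% lower at 15 against 400 µg/L. The shares were 1.11% and 3.10% at 45 against 400 µg/L. At 15 against 400 µg/L the differences were -2.33 ± 0.16 for BAR1 (adjusted p = 3.14e-08), -1.71 ± 0.23 for AGA2 (6.12e-05), -1.57 ± 0.18 for AXL1 (8.94e-06), -1.46 ± 0.15 for STE2 (3.27e-06) and -0.44 ± 0.14 for STE6 (0.0445). At 45 against 400 µg/L AXL1 alone of the 8 genes differed, by -0.75 ± 0.18 (edgeR adjusted p = 0.0258). The STE6 value was -0.39 and the AXL1 value at 45 µg/L was -0.55 without library 1 of WT at 400 µg/L, and neither was then called (edgeR adjusted p = 0.0533 and 0.0811). Groups of 2 replicates were too small for a test of single outlying samples. The strains differ in mating type as well as in SIR2, and these cannot be told apart.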

How the results depend on the processing

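Of 47 calls among the 136 tests of the 8 genes, 32 held under every alternative run and 15 were lost under at least 1, and no called value changed sign. Of 3456 alternative values, 108 changed their side of the threshold, or were counts that moved by over 1.5 times, and 96 values that were called in neither fit changed sign. With upper-quartile factors, 1 gene was called in WT at 45 against 400 µg/L; these factors moved the median of all genes at 400 µg/L between strains by -0.10, with 16.3% called higher and 30.6% lower. With library 1R left out, 3 genes were called between strains at 400 µg/L and 0 in WT at 45 against 135 µg/L. With libraries 1 and 1R as 2 replicates, the counts were 0 in WT at 45 against 135 µg/L, 3 in WT at 15 against 45 µg/L (AXL1 and STE6 lost) and 0 for the difference between strains at 45 µg/L. Fitted to the compared groups alone, they were 3 between strains at 400 µg/L, 1 in WT at 45 against 400 µg/L, 1 in sir2Δ at 135 against 400 µg/L, 0 in WT at 45 against 135 µg/L and 0 for the difference at 45 µg/L. The causes were not tested. Shares over all genes are given here for the upper-quartile factors alone. No change particular to these 8 genes is thus read from the counts in this paragraph. Leaving out 1 replicate gave 3 to 5 between strains at 400 µg/L, 1 to 2 in WT at 45 against 400 µg/L, 0 to 1 in sir2Δ at 45 against 400 µg/L (1 without sir2Δ replicate 6 at 45 µg/L), 0 to 2 in WT at 45 against 135 µg/L and 0 to 1 for the difference at 45 µg/L. With a replicate block, 5 genes were called between strains at 400 µg/L and 5 for the difference at 15 µg/L, as without it. Deviations of same-numbered WT and sir2Δ replicates correlated at -0.13, -0.10, 0.32 and 0.19 at 400, 135, 45 and 15 µg/L, so the numbers were not taken to pair the samples; nicotinic acid contrasts could not be blocked, since the numbers are nested in the levels. Spearman in place of Pearson correlation changed all 3 best matches of STE2, BAR1 and AGA2 and some of those of each of the other 5 genes. The promoter alternative was not run, since no promoter sequences were used here. The number of replicates, 2 a group, limits what can be said of small changes, and AGA2 in WT rests on 51 to 232 reads.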
